A study of Mus musculus with 24 samples.

Results

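The enzymes that place methyl groups on histone lysines and those that remove them were followed in the hippocampus of adult mice that lost the acetyltransferase CBP, and of control mice, in standard cages (SC) or in an enriched environment (EE). The genes were chosen by name from the deposited count table: symbols that start with Kmt, Kdm or Setd followed by a digit, Setdb or Setmar, together with Ezh1, Ezh2, Eed, Suz12, Ehmt1, Ehmt2, Nsd1, Nsd2, Nsd3, Ash1l, Dot1l, Suv39h1 and Suv39h2. This gave 51 of the 55471 genes in the table, of which 50 are protein-coding and 1, Kdm6bos, is an antisense RNA that overlaps Kdm6b. The pseudogene Kdm4dl was left out. RNA-seq was done on 12 mice, 3 in each of 4 groups: control SC, CBP-ifKO SC, control EE and CBP-ifKO EE.

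All mice were C57BL/6 by the labels (C57BL/6J by the methods of the study), 3 to 6 months old, and all had received tamoxifen in 5 doses of a 20 mg/mL solution. CBP-ifKOs carried floxed Crebbp alleles and the Camk2a-creERT2 transgene, whose promoter is active in forebrain excitatory neurons, so that glia, vessels and interneurons of the dissected tissue kept the gene. Controls were littermates without the transgene, so an effect of the transgene and an effect of CBP loss cannot be told apart in the genotype comparison. The EE experiments of the study used females. In whole tissue, fewer cells of a type and less RNA per cell cannot be told apart.

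Methylation of histone lysines carries different information at different positions. Methylated H3K4 marks promoters and enhancers in use, H3K36 marks transcribed gene bodies, H3K79 accompanies elongation, whereas H3K9 and H3K27 methylation mark heterochromatin and Polycomb-silenced genes. SET domain proteins and Dot1l write these marks, and they are removed by the amine oxidases Kdm1a and Kdm1b or by JmjC domain demethylases. Mutations in many of these genes cause human intellectual disability syndromes, as do mutations in CREBBP, the gene for CBP. CBP itself acetylates histones and binds CREB, a transcription factor that recognizes the cAMP response element (CRE).

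Sequences upstream of the start site are shown for the 4 genes that passed the test between genotypes and for Suv39h2, the paralog of Suv39h1, since they are the sequences in which a CRE would be looked for. They were taken from RefSeq (GRCm38.p6) and run 5′ to 3′ on the gene's strand, ending at the base before the start of the gene. Capitals mark the CRE core TGACG or its reverse complement CGTCA, searched on both strands. The Suv39h1 sequence lies at chrX:8074761-8075010 on the minus strand, Suv39h2 at chr2:3475032-3475236 on the minus strand, Kdm4c at chr4:74242247-74242496 on the plus strand, Setd6 at chr8:95715663-95715880 on the plus strand and Ezh1 at chr11:101226464-101226713 on the minus strand.
Suv39h1: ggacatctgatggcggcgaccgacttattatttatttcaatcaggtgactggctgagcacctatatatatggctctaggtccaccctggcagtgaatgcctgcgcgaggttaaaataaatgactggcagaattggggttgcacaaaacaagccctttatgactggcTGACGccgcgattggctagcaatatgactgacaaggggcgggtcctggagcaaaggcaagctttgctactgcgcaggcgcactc
Suv39h2: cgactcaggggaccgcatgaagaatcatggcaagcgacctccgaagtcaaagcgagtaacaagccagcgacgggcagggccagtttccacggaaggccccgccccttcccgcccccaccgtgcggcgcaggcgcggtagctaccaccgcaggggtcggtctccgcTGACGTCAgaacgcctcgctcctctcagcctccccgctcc
Kdm4c: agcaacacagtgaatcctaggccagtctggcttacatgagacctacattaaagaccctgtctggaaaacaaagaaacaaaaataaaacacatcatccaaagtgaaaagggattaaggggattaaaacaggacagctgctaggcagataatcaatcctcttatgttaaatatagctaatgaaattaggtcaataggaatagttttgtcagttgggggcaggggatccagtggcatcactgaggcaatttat
Setd6: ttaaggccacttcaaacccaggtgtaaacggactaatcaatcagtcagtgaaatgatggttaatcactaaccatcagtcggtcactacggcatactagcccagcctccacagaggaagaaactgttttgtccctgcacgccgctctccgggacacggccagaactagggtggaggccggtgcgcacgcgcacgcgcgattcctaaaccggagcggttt
Ezh1: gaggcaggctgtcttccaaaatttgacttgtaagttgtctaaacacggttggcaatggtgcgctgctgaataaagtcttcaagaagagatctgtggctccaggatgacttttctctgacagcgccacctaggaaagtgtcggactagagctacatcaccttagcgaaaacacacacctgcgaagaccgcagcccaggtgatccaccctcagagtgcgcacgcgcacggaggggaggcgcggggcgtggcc

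The Suv39h1 window held 1 CRE core and the Suv39h2 window held 2 that overlap to form the full palindrome TGACGTCA, whereas the windows of Kdm4c, Setd6 and Ezh1 printed here held none. Promoter sequences matched 38 of the 51 genes by symbol. Within 250 bases upstream of any listed start, the core was present in 9 of these 38 genes (23.7%) and in 19.8% of the 27025 genes of the RefSeq table. The full palindrome was present in 1 of the 38, Suv39h2, and in 1.77% of all genes. A second listed start of Kdm4c, inside the gene, had 1 core in its own window, and a second one of Suv39h1, 399 bases inside the gene, had none. These matches describe the letters only.

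Labels and libraries were checked before the comparisons. Crebbp was lower in all 6 CBP-ifKOs (44.5 to 51.6 CPM, counts scaled to the library size) than in all 6 controls (69.6 to 81.9 CPM), a log2 difference of −0.61 ± 0.04 (SE, adjusted p = 3.38e-07). Ep300, the gene of the paralog p300, did not pass the test (log2 difference 0.12 ± 0.09, adjusted p = 0.408). Its levels were 83.7 and 85.3 CPM in control SC mouse 2 and control EE mouse 2. They were 55.8 to 65.0 CPM in the remaining controls and 67.7 to 80.45 CPM in CBP-ifKOs. Totals ran from 26874015 to 27971488 counts in controls and from 28582210 to 37448388 in CBP-ifKOs. No gene had an odd count in any CBP-ifKO mouse, whereas odd values made up 54.0% to 55.1% of the non-zero counts of controls, so the CBP-ifKO totals may stand for as few as 14291105 to 18724194 reads. Dividing them by 2 left the number of these genes past the threshold as it was in all 7 comparisons. The control mice numbered 2, in SC and in EE, stood apart for long genes: of the 19 tested genes over 10 kb, 17 and 18 were highest of their group in these mice. Of the 31 shorter genes, 13 and 19 were highest in them as well. CBP-ifKO EE mouse 2 was highest of its group for 11 of the 19 long and 21 of the 31 shorter genes. Control EE mouse 1 also held choroid plexus transcripts, with a summed level of 1191 CPM over 6 markers against 6.46 to 38.2 CPM in the other 11 libraries.

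The genes were expressed at moderate levels. Divided by the length of the gene model, 49 of the 50 tested genes averaged at least 1 CPM per kb over the 12 mice and 12 reached 10 CPM per kb. Ehmt2, which encodes the H3K9 dimethyltransferase G9a, was the highest at 34.2 ± 1.95 CPM per kb (SD, n = 12), followed by the H3K4 monomethyltransferase Setd7 at 21.1 ± 1.89 CPM per kb, and these did not overlap in any mouse. Setd3 (16.5 ± 0.700), Kdm1a (16.4 ± 0.547), Kdm4b (16.0 ± 1.09) and Ezh1 (14.8 ± 0.850 CPM per kb) came next, and the values of Setd3, Kdm1a and Kdm4b differed by less than their SDs. The lowest tested gene was Kdm4d, a JmjC demethylase, at 0.261 ± 0.0649 CPM per kb, or 23.3 counts per library on average.

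**Figure D1:**
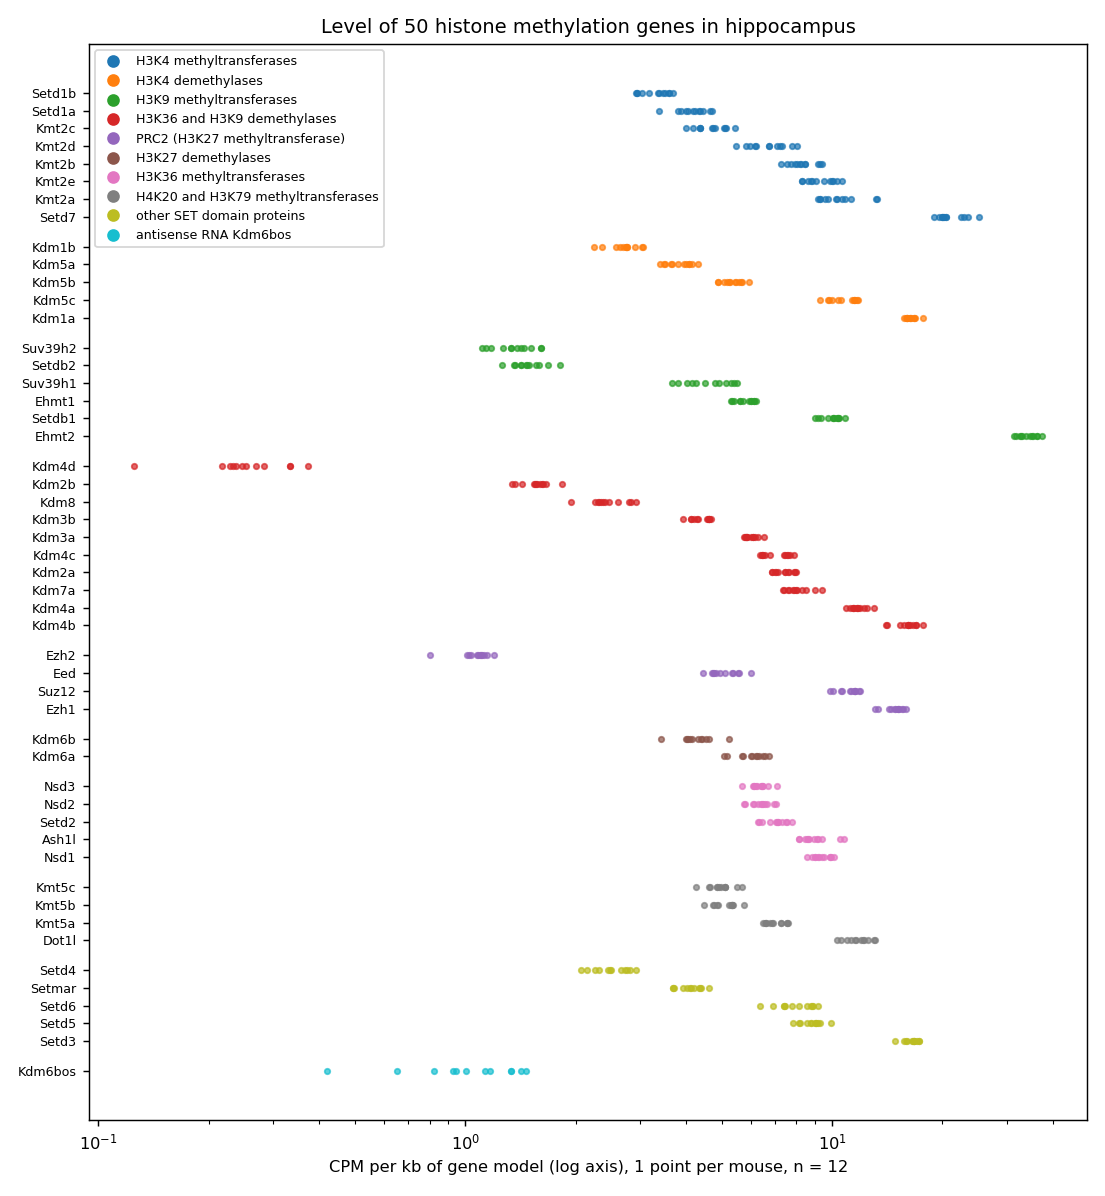
Level of the 50 tested genes in each of 12 mice, grouped by the residue acted on. The x axis is CPM per kb of gene model on a log scale and each point is 1 mouse. Ehmt2 lies highest at a mean of 34.2 and Kdm4d lowest at 0.261 CPM per kb.

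Paralogs were not used equally. Ezh1 and Ezh2 encode the alternative catalytic subunits of PRC2, and Ezh2 is typical of dividing cells. Per length, Ezh1 was 14.0 ± 1.61 times as high as Ezh2 (SD, n = 12, from 11.9 to 18.5). The 2 genes for the G9a and GLP pair differed by 5.92 ± 0.445 times in favour of Ehmt2 over Ehmt1. Suv39h1 was 3.41 ± 0.372 times as high as Suv39h2, with group means from 3.23 to 3.59, so this ratio moved by less than the spread between mice. Kdm5d, the Y-linked H3K4 demethylase, had 6 counts in all over 3 of the 12 libraries (0.111, 0.0363 and 0.0517 CPM), with 0 in the other 9 and in every CBP-ifKO SC and control EE mouse. It did not pass the filter on low counts, a count of 0 allows up to 0.0801 to 0.112 CPM depending on the library, and its reads may be shared with the X-linked paralog Kdm5c.

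Spread within a group differed between genes and between groups. Kmt2a had an SD of 35.8 CPM in control SC and 34.1 in control EE, against 5.67 in CBP-ifKO SC and 9.38 in CBP-ifKO EE mice. Dot1l went the other way, with 4.2 and 4.3 CPM in controls against 9.0 and 8.0 in CBP-ifKOs. The coefficient of variation between mice of the same group had a median of 6.92% over the 50 genes, from 2.30% for Kdm4c to 34.8% for Kdm6bos.

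The question for the genotype comparison was whether the loss of CBP in excitatory neurons altered the transcripts of the methylation machinery. Averaged over both housings, 4 of 50 tested genes passed the threshold of an adjusted p of 0.05 (8%): Suv39h1, Kdm4c and Setd6 rose in CBP-ifKOs and Ezh1 fell. Over all genes tested in this comparison, 16.9% passed (6.64% higher and 10.3% lower). The order of these shares was not tested and turned in some fits, with 34% of the 50 genes against 21.5% of all genes without both control mice numbered 2, and 22% against 20.4% with the trend over gene length removed. The 2 mice left out were picked for high values of long genes among these 50, so that share is no test of the order. None of the 50 exceeded 0.5 on the log2 scale, which 6.34% of all genes did, and their median absolute log2 fold change was 0.06 against 0.12 for all genes. In this test edgeR's quasi-likelihood F test was used, with Benjamini-Hochberg adjustment over all 18251 genes tested. At an unadjusted p of 0.05, 13 of the 50 (26%) and 29.9% of all genes passed. DESeq2 found 7 of the 50 (14%) and 18.4% of all genes.

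**Figure D2:**
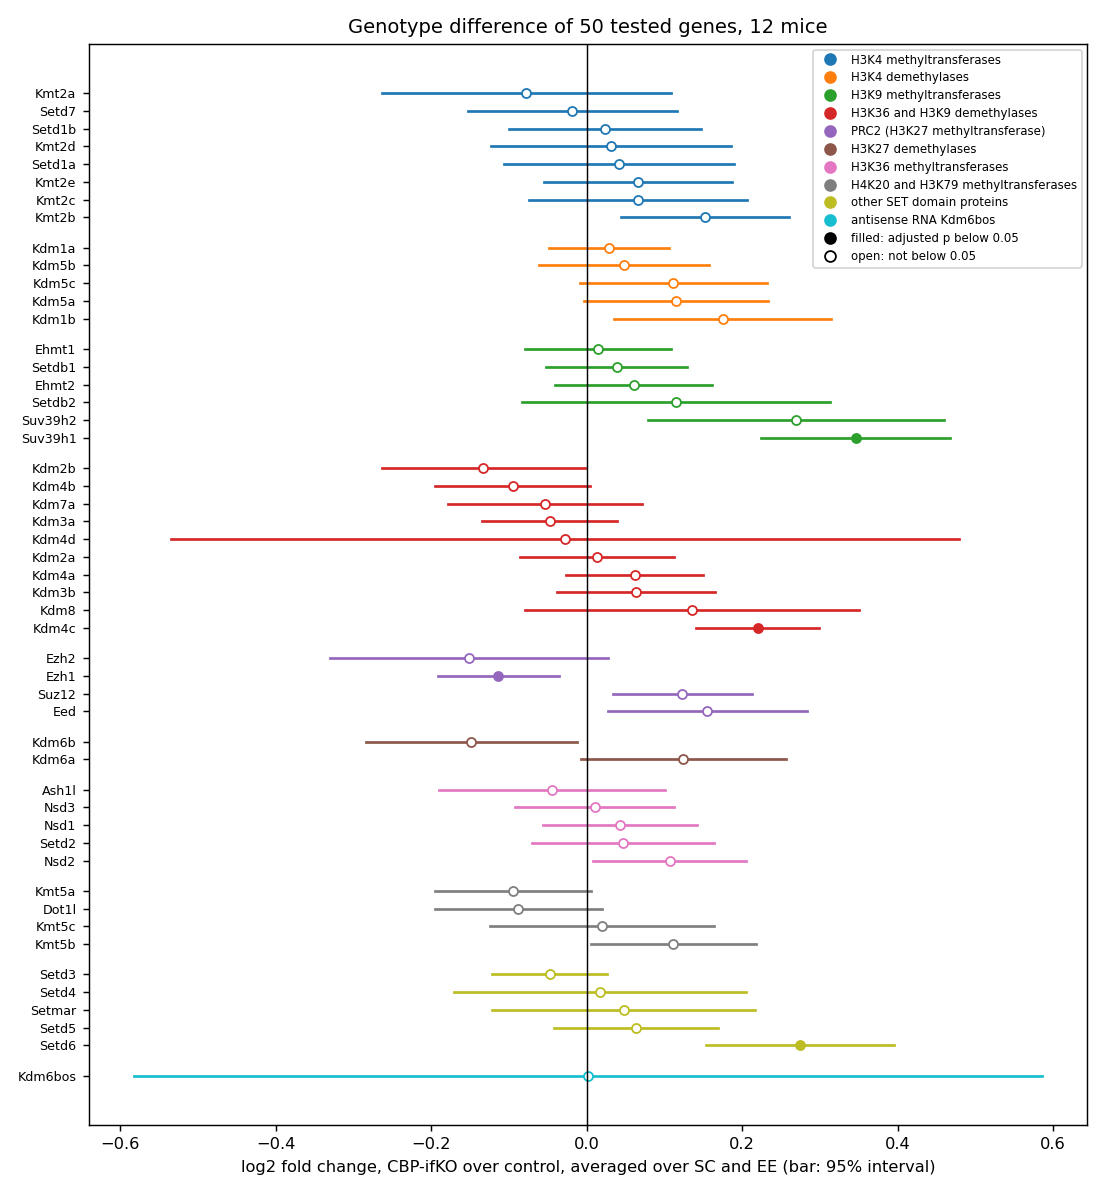
Log2 fold change of CBP-ifKOs over controls averaged over SC and EE (x axis), for 50 genes in 12 mice, with 95% intervals. Filled points passed the adjusted p of 0.05: Suv39h1 (0.35), Setd6 (0.28) and Kdm4c (0.22) are above 0 and Ezh1 (−0.11) is below.

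Among the H3K9 methyltransferases, Suv39h1 showed the greatest difference. Suv39h1 (ENSMUSG00000039231, chrX:8061171-8074760, minus strand) writes H3K9 trimethylation in heterochromatin. It was at 23.8, 20.1 and 22.4 CPM in control SC mice, 27.02, 28.5 and 25.9 in CBP-ifKO SC mice, 21.9, 21.3 and 19.4 in control EE mice and 28.9, 25.4 and 28.0 in CBP-ifKO EE mice. All 6 CBP-ifKOs were above all 6 controls. Genotypes were apart in this way for 3 of the 50 genes and for 8.56% of all genes tested. The log2 fold change averaged over housings was 0.35 ± 0.06 (SE, 95% interval 0.22 to 0.47, adjusted p = 0.000674). Of the exonic length of Suv39h1, 14.6% overlaps Gm14820 on the opposite strand, and whether the counting used strand is not given in the sources used here. Genes on the opposite strand also overlap 10% of Suv39h2, 24.6% of Kdm3b, 9.3% of Kmt2e, 7.6% of Kdm2b, 6.8% of Eed, 6.3% of Kmt5b, 4.7% of Setdb1 and 3.6% of Suz12. On the same strand, 51.8% of the exonic length of Setd1a overlaps Gm49388, where strand would not tell the reads apart.

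The paralog Suv39h2 (ENSMUSG00000026646, chr2:3455815-3475031), the other enzyme of this pair, lay just outside the threshold. Its levels were 5.01, 5.18 and 6.10 CPM in control SC, 7.11, 6.37 and 6.67 in CBP-ifKO SC, 4.89, 5.60 and 5.89 in control EE and 6.25, 5.87 and 7.11 in CBP-ifKO EE mice. The SC genotypes did not overlap, and in EE 1 control was above 1 CBP-ifKO. The log2 fold change was 0.27 ± 0.09 (SE), with an adjusted p of 0.0506. This call depended on the fit: Suv39h2 passed in 5 of 9 alternative fits, the replicate block included, and in 2 of 12 fits that left out 1 mouse, with adjusted p-values of 0.0366 to 0.154. The other 4 genes for H3K9 methyltransferases also had positive fold changes, from 0.01 for Ehmt1 to 0.12 for Setdb2, and none passed the test, though Ehmt2 did with a GC trend removed. The sign of Ehmt1 turned, to −0.01, without CBP-ifKO EE mouse 2.

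Among the demethylases, Kdm4c was the gene that passed. Kdm4c (ENSMUSG00000028397, chr4:74242497-74405860, plus strand) is a JmjC demethylase that removes H3K9 and H3K36 trimethylation, and so acts against the mark that Suv39h1 writes. It was at 37.1, 37.8 and 37.5 CPM in control SC, 43.1, 43.8 and 45.9 in CBP-ifKO SC, 38.3, 39.4 and 37.6 in control EE and 44.1, 44.8 and 43.4 in CBP-ifKO EE mice. The lowest CBP-ifKO was above the highest control. The log2 fold change was 0.22 ± 0.04 (SE, 95% interval 0.14 to 0.30, adjusted p = 0.000788). The other 9 genes of the H3K36 and H3K9 demethylases did not pass, and 5 of the 10 had a positive and 5 a negative fold change. Kdm2b (−0.13 ± 0.06, adjusted p = 0.159) and Kdm4b (−0.10 ± 0.05, adjusted p = 0.187) were the most negative of them.

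Setd6 (ENSMUSG00000031671, chr8:95715881-95719010, plus strand) encodes a SET domain monomethyltransferase whose known substrates include the NF-kB subunit RelA and the histone variant H2A.Z. Its levels were 14.1, 12.1 and 13.1 CPM in control SC, 17.5, 15.5 and 16.8 in CBP-ifKO SC, 14.8, 14.2 and 14.1 in control EE and 16.2, 16.8 and 16.7 in CBP-ifKO EE mice. Again the genotypes did not overlap. The log2 fold change was 0.28 ± 0.06 (SE, 95% interval 0.15 to 0.40, adjusted p = 0.0035). The other SET domain proteins Setd3, Setd4, Setd5 and Setmar lay between −0.05 and 0.06, and none passed. Setd3 is known to methylate a histidine of actin rather than a histone.

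**Figure D3:**
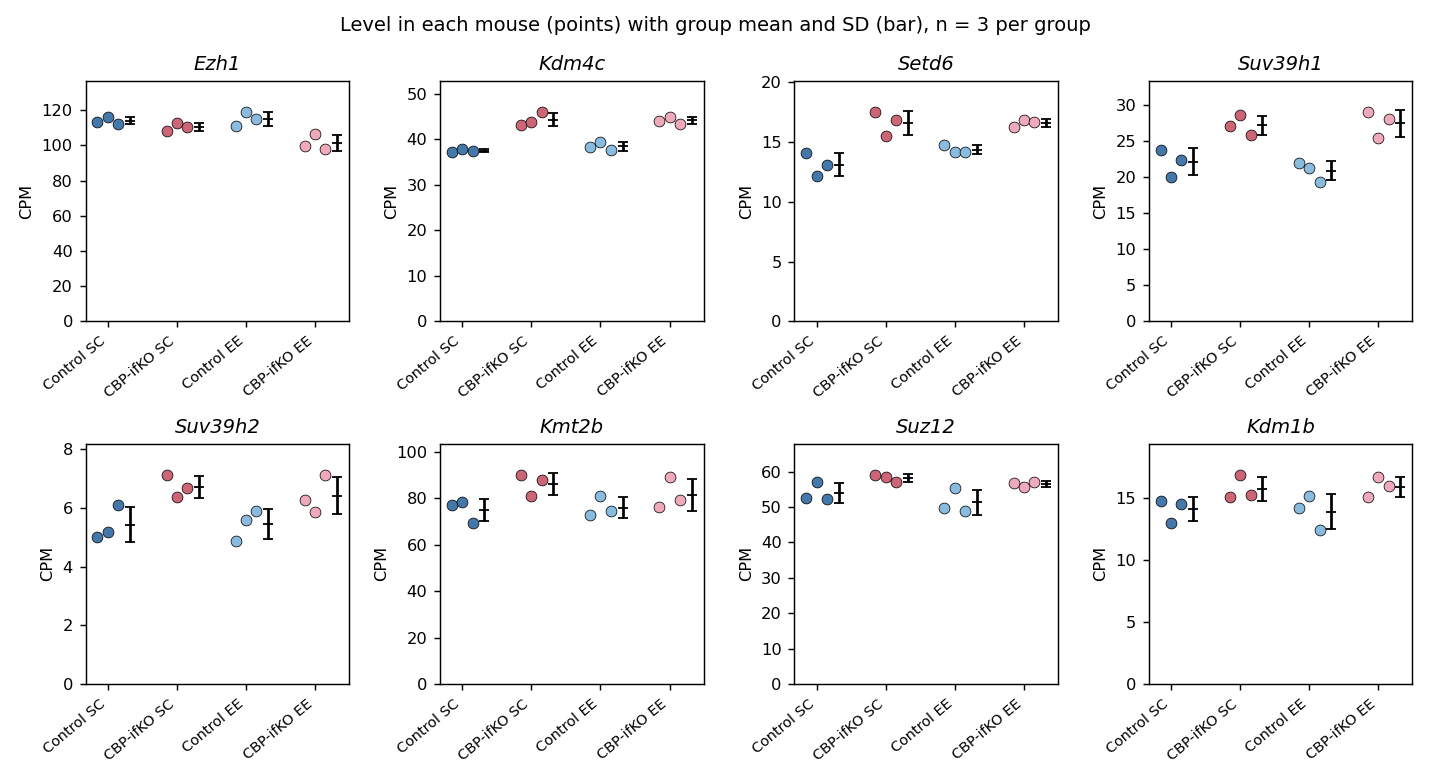
Level in CPM (y axis, from 0) of 8 genes in each of 12 mice, with the group mean and SD. For Suv39h1, Kdm4c and Setd6 all 6 CBP-ifKOs lie above all 6 controls, whereas the groups overlap for the other 5 genes.

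The subunits of PRC2, the H3K27 methyltransferase complex, did not share a direction. Ezh1 (ENSMUSG00000006920, chr11:101191115-101226463, minus strand), the catalytic subunit found at the higher level here, was at 113.2, 116.1 and 112.3 CPM in control SC, 108.0, 112.7 and 110.2 in CBP-ifKO SC, 110.7, 118.7 and 115.1 in control EE and 99.4, 106.6 and 97.8 in CBP-ifKO EE mice. The groups overlapped in SC and were apart in EE. The log2 fold change averaged over housings was −0.11 ± 0.04 (SE, 95% interval −0.19 to −0.04, adjusted p = 0.0444). This call was lost when any of 10 of the 12 mice was left out, with an adjusted p up to 0.109, and in 2 of the 9 other alternative fits. Ezh2 had the most negative fold change of the 50 genes at −0.15 ± 0.08 (adjusted p = 0.251), with 7.24 to 7.99 CPM in controls and 5.35 to 7.49 CPM in CBP-ifKOs.

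The non-catalytic subunits were on the other side of 0. Suz12 (ENSMUSG00000017548), the scaffold of the complex, was at 52.5, 57.1 and 52.3 CPM in control SC, 59.0, 58.4 and 57.0 in CBP-ifKO SC, 49.7, 55.4 and 48.9 in control EE and 56.9, 55.6 and 57.0 in CBP-ifKO EE mice. Control mice numbered 2 were the highest controls, and in SC that mouse was above the lowest CBP-ifKO. The log2 fold change was 0.12 ± 0.04 with an adjusted p of 0.0552. Suz12 passed in 7 of the 9 alternative fits, the replicate block included, and in 2 of the 12 that left out 1 mouse, with adjusted p-values of 0.00242 to 0.199. Eed, which reads H3K27 trimethylation, had a fold change of 0.16 ± 0.06 (adjusted p = 0.0925). The demethylases of the same mark, Kdm6a (0.12 ± 0.06, adjusted p = 0.192) and Kdm6b (−0.15 ± 0.06, adjusted p = 0.128), had opposite signs and neither passed. Kdm6bos was at 0.00 ± 0.27 and 34.0% of its length overlaps Kdm6b, where reads of the pair cannot be told apart without strand.

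None of the 8 genes grouped as H3K4 methyltransferases passed the test in the fit used throughout, and for Kmt2b, Kmt2c and Kmt2e this depended on the fit. Kmt2b (ENSMUSG00000006307), the MLL2 enzyme that is known to be required for memory in forebrain neurons, came closest. It was at 77.0, 78.4 and 69.5 CPM in control SC, 89.9, 80.9 and 87.9 in CBP-ifKO SC, 72.5, 81.0 and 74.3 in control EE and 76.3, 89.3 and 79.02 in CBP-ifKO EE mice. The genotypes did not overlap in SC and did in EE, and the log2 fold change was 0.15 ± 0.05 with an adjusted p of 0.0518. Kmt2b passed in 8 of the 9 alternative fits and in 4 of the 12 that left out 1 mouse, with adjusted p-values of 0.0132 to 0.131. The other 7 ranged from −0.08 for Kmt2a to 0.07 for Kmt2c. Without both control mice numbered 2 all 8 were positive, from 0.06 up, and Kmt2b, Kmt2c and Kmt2e passed. Those mice were picked for high values of long genes, so this shift was in part fixed in advance. The H3K4 demethylases were positive in 5 of 5 tested genes, with none past the threshold in the fit used throughout. Kdm5a, Kdm5b and Kdm5c passed without both control mice numbered 2, and Kdm5a also with the length trend removed. Kdm1b (ENSMUSG00000038080), which encodes the amine oxidase LSD2, was at 14.8, 13.0 and 14.5 CPM in control SC, 15.1, 16.8 and 15.2 in CBP-ifKO SC, 14.2, 15.1 and 12.4 in control EE and 15.04, 16.7 and 16.0 in CBP-ifKO EE mice. All but 1 control were below every CBP-ifKO, and the fold change was 0.18 ± 0.07 (adjusted p = 0.0816, and 0.0437 without control EE mouse 2). Of its exonic length, 9.2% overlaps Dek on the opposite strand. Kdm1a, the LSD1 gene, was at 0.03 ± 0.04 with a 95% interval of −0.05 to 0.11.

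The remaining writers did not pass in this fit. The H3K36 methyltransferases ranged from −0.04 (Ash1l, 0.08 without both control mice numbered 2) to 0.11 (Nsd2, 95% interval 0.01 to 0.21, adjusted p = 0.132). Among the enzymes for H4K20 and H3K79, Kmt5b was at 0.11 ± 0.05 (adjusted p = 0.143) and Dot1l, the H3K79 methyltransferase, at −0.09 ± 0.05 (adjusted p = 0.268). Over the 50 genes, 36 fold changes were positive and 14 negative, with a median of 0.04 against 0.00 for all genes, and the 95% intervals reached a median of 0.12 to either side.

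The number of genes past the threshold changed most with the 2 control mice that stood apart for long genes. The histone methylation genes have long transcripts, with a median gene model of 7275 bases against 3909 for all tested genes. Without both control mice numbered 2, a fit chosen after their deviation was seen, 17 of the 50 passed (34%) against 21.5% of all genes, all 17 higher in CBP-ifKOs and 10 of them over 10 kb. These mice were picked because most long genes of this set were highest in them. Leaving them out lowers the control mean of such genes, so more genes passing on the higher side was in part fixed in advance. The count is therefore no support for a rise. Suv39h1, Kdm4c, Setd6, Kmt2b and Suz12 were among the 17, and so were Kdm5a, Kdm5b, Kdm5c, Kdm6a, Kmt2c, Kmt2e, Nsd1, Nsd2, Setd2, Setd5, Kmt5b and Kdm3b with log2 fold changes of 0.11 to 0.22, while Ezh1 was not. Without only the SC mouse 7 passed (14%, against 16.5% of all genes), and without only the EE mouse 8 (16%, against 17.7%). With the trend over gene length removed and all mice kept, 11 passed (22%, against 20.4%), 10 of them higher, with Kdm5a, Kmt2b, Kmt5b, Nsd2, Setd5, Suv39h2 and Suz12 in addition. Suv39h1, Kdm4c and Setd6 passed in all 21 alternative fits, leaving out any 1 mouse included.

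**Figure D4:**
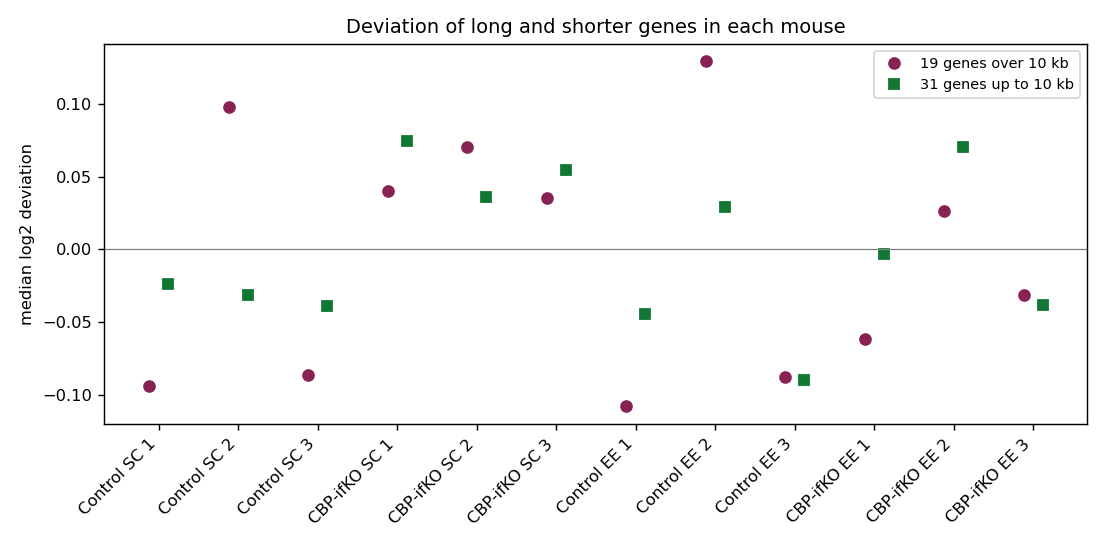
Median log2 deviation of each mouse (x axis) from the mean of all 12, for the 19 genes over 10 kb and the 31 shorter genes. Control SC 2 (0.10) and control EE 2 (0.13) lie above the other controls for the long genes.

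Across all genes, the rank correlation between a gene's deviation and its length was 0.188 and 0.203 in these 2 mice and −0.192 to 0.0734 in the other 10. It is given as a description, since the genes share a library. Its part in the genotype result was not tested beyond the fits above.

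Each housing was then fitted on its own. In SC, 1 of the 50 genes passed (2%), against 5.52% of all genes. This was Kdm4c at 0.24 ± 0.06 (adjusted p = 0.0363). Setd6 (0.34 ± 0.09, adjusted p = 0.0506) and Suv39h1 (0.30 ± 0.08, adjusted p = 0.0572) were just outside, and the most negative was Ezh2 (−0.23 ± 0.14, adjusted p = 0.383). The Kdm4c call was lost when any of the 6 SC mice except control mouse 2 was left out, with an adjusted p of up to 0.145. With all mice kept, it was also lost without a filter on low counts (adjusted p = 0.0555), where Suv39h1 passed instead, and with the replicate block (adjusted p = 0.052), where Setd6 did. Without control SC mouse 2, 11 of the 50 passed (22%) against 10.6% of all genes, all 11 higher and 7 of them over 10 kb. The same limit holds here, since most long genes of this set were highest in this mouse.

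In EE, with 6 other mice, again 1 of 50 passed, against 4.57% of all genes. This was Suv39h1 at 0.41 ± 0.08 (adjusted p = 0.0194), and it was lost without control EE mouse 3 or CBP-ifKO EE mouse 1 or 3. Kdm4c (0.21 ± 0.06, adjusted p = 0.0791), Eed (0.26 ± 0.09, adjusted p = 0.116) and Setd6 (0.22 ± 0.08, adjusted p = 0.169) followed. The most negative in EE were Dot1l (−0.19 ± 0.07, adjusted p = 0.141) and Ezh1 (−0.17 ± 0.06, adjusted p = 0.13).

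The fits of SC and EE share no mouse. The fold change had the same sign in both for 39 of 50 genes (78%), 29 higher and 10 lower, and for 72% of the 17250 genes tested in both. Suv39h1, Suv39h2, Kdm4c, Setd6 and Kmt2b were positive in both, and Ezh1, Ezh2 and Kdm6b negative in both.

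**Figure D5:**
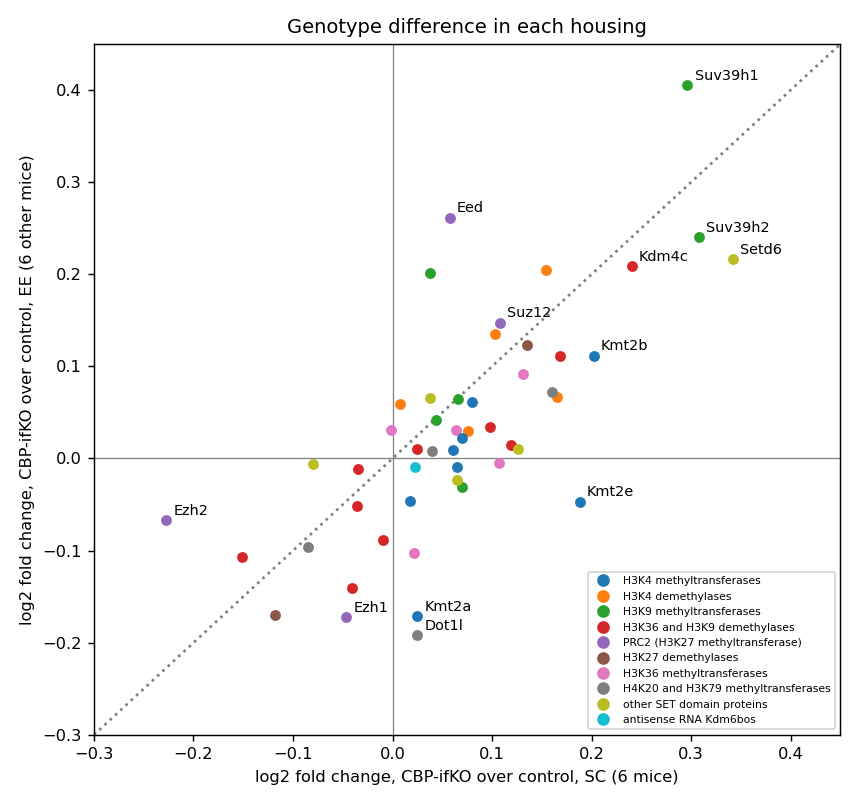
Log2 fold change of CBP-ifKOs over controls in SC (x axis) and in EE (y axis), with 1 point for each of 50 genes and the line of equal change dotted. Right of the vertical line and below the horizontal one, Kmt2e (0.19 and −0.05), Kmt2a (0.02 and −0.17) and Dot1l (0.02 and −0.19) have opposite signs in the housings. Of each pair 1 sign turned when a single mouse was left out: Kmt2e in EE to 0.03 without control EE mouse 2, Kmt2a in SC to −0.07 without control SC mouse 1 and Dot1l in SC to −0.04 without CBP-ifKO SC mouse 1.

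Enrichment was compared with standard housing within each genotype, in a fit of all 12 mice. In control mice 0 of the 50 genes passed in edgeR or DESeq2, and 0 were below an unadjusted p of 0.05, against 0% of all genes past the adjusted and 4.21% below the unadjusted threshold. In CBP-ifKOs 0 passed in either tool, against 0.011% of all genes, and 6 of the 50 were below an unadjusted p of 0.05 (12%) against 8.59% of all genes. Of these 6, Kmt2d (−0.23 ± 0.10, adjusted p = 0.558), Kmt2e, Setd1b, Ehmt1 and Ezh1 were lower in EE and Setd3 (0.12 ± 0.05, adjusted p = 0.518) was higher. Averaged over genotypes 0 passed in either tool, against 0.164% of all genes in edgeR, and 4 were below an unadjusted p of 0.05 (8%) against 9.44% of all genes.

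None of the H3K4 methyltransferases passed the tests for EE in the fit used throughout. Kmt2d did pass averaged over genotypes when low counts were not filtered. In CBP-ifKOs all 8 had lower values in EE than in SC, as had 39 of all 50 genes, with log2 differences of −0.23 to −0.08 and a median of −0.16, against a median of −0.07 for the 50 genes and of 0.00 for all genes. All 4 H4K20 and H3K79 methyltransferases (median −0.08) and the 2 H3K27 demethylases (median −0.11) were also lower in EE in CBP-ifKOs. In control mice 5 of the 8 H3K4 methyltransferases were lower and their median was −0.07. Kmt2d, the main H3K4 monomethyltransferase of enhancers together with Kmt2c, was at 141.2, 155.2 and 123.2 CPM in control SC, 160.1, 143.6 and 134.1 in CBP-ifKO SC, 109.3, 145.3 and 119.0 in control EE and 123.7, 133.9 and 116.0 in CBP-ifKO EE mice. The CBP-ifKO groups touched without overlap, 134.1 against 133.9 CPM, whereas the control groups overlapped. The housings were apart for 14 of the 50 genes in CBP-ifKOs and for 4 in control mice. The share over all genes was not counted. CBP-ifKO EE libraries had rank correlations with gene length of −0.124 to −0.00731 and CBP-ifKO SC libraries of 0.0153 to 0.0734. With the length trend removed the 8 genes were again all lower in CBP-ifKOs in EE, with a median of −0.12. The 4 H4K20 and H3K79 methyltransferases also stayed lower, with a median of −0.06. In that fit 3 of 5 H3K36 methyltransferases and 4 of 5 H3K4 demethylases were higher in EE, against 1 and 2 before.

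The difference between genotypes in their response to EE was tested as an interaction. None of the 50 genes passed in edgeR or DESeq2, and 0% of all genes passed in edgeR. At an unadjusted p of 0.05, 2 genes were found (4%, against 3.15% of all genes), Dot1l (−0.23 ± 0.10, adjusted p = 0.9998) and Kmt2e (−0.24 ± 0.11, adjusted p = 0.9998). Dot1l was at 100.4, 106.4 and 98.2 CPM in control SC, 113.3, 101.4 and 95.7 in CBP-ifKO SC, 105.8, 114.3 and 109.2 in control EE and 89.7, 104.6 and 92.2 in CBP-ifKO EE mice. The SC groups overlapped, whereas in EE every CBP-ifKO was below every control. With 3 mice a side, the genotypes were apart for 7 of the 50 genes in EE and for 12 in SC. The share over all genes was not counted. Kmt2e, a PHD and SET domain protein of the H3K4 group, was at 89.8, 104.2 and 86.6 CPM in control SC, 111.5, 104.9 and 103.2 in CBP-ifKO SC, 92.0, 108.1 and 91.6 in control EE and 94.7, 99.2 and 86.7 in CBP-ifKO EE mice. In both housings control mouse 2 was the highest control for Kmt2e.

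Partners of these enzymes were taken from 8 lists of complex subunits, readers and related enzymes. Averaged over housings 15 of their 86 tested genes passed (17.4%), 8 higher and 7 lower, a share near the 16.9% of all genes. None of 12 tested COMPASS and MLL complex subunits passed, and their median was 0.01. Most, but not all, of the genes grouped here as H3K4 methyltransferases work in these complexes. Of 8 accessory subunits of PRC2, 2 fell: Epop, which links PRC2 to elongin, by 1.09 on the log2 scale (SE 0.13, adjusted p = 4.44e-05), and the histone chaperone Rbbp7 by 0.16 (SE 0.04, adjusted p = 0.00615). Epop was at 27.2, 18.5 and 21.3 CPM in control SC, 13.8, 13.1 and 9.16 in CBP-ifKO SC, 23.0, 15.4 and 24.2 in control EE and 7.60, 8.33 and 9.93 in CBP-ifKO EE mice. Every CBP-ifKO was below every control, and Epop passed in SC (−0.90 ± 0.16, adjusted p = 0.00819) and in EE (−1.27 ± 0.17, adjusted p = 0.00204) as well. This difference was larger than that of any of the 50 enzymes and core subunits.

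Among the other lists, 5 held 1 to 4 genes past the threshold each, where 16.9% of all genes passed. Of 18 PRC1 subunits, Bmi1 (0.17 ± 0.04), Cbx7 (0.18 ± 0.05) and Pcgf6 (0.17 ± 0.05) rose and Cbx6 (−0.14 ± 0.03) fell. Of 8 readers and partners of H3K9 methylation, Wiz, a zinc finger partner of G9a and GLP, rose (0.20 ± 0.05) and the HP1-alpha gene Cbx5 fell (−0.14 ± 0.04). Of 8 partners of LSD1, Rcor2, a CoREST family corepressor, fell by 0.58 (SE 0.10, adjusted p = 0.00101), with 11.6 to 16.6 CPM in controls and 8.16 to 10.7 CPM in CBP-ifKOs. Of 9 other JmjC proteins Phf8, an H3K9 demethylase, rose (0.18 ± 0.06). Of 14 other lysine methyltransferases Smyd3 rose (0.14 ± 0.04) and Prdm8 fell (−0.16 ± 0.05). Medians of these 5 lists lay between −0.03 and 0.05.

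Arginine methyltransferases were the last list, and over all genes 16.9% passed in the same comparison. Of 9 genes, Prmt9 (0.26 ± 0.06, adjusted p = 0.00447) and Prmt7 (0.14 ± 0.04) rose and Prmt8, a membrane-bound enzyme found mainly in brain, fell by 0.44 (SE 0.04, adjusted p = 7.26e-06). Prmt8 was at 82.2, 70.2 and 78.6 CPM in control SC, 59.4, 56.1 and 58.9 in CBP-ifKO SC, 84.3, 87.7 and 90.2 in control EE and 63.7, 64.4 and 61.0 in CBP-ifKO EE mice. The genotypes were apart in both housings. In the housing comparisons and in the interaction, 0 genes of all 8 lists passed in edgeR.

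Markers of cell types that moved with genotype are given beside these results. Summed levels of 5 dentate granule cell markers were 492.2 to 529.0 CPM in control SC, 436.9 to 484.0 in CBP-ifKO SC, 467.7 to 553.6 in control EE and 405.1 to 413.5 in CBP-ifKO EE mice. Of these markers 3 of 5 fell averaged over housings, and the median log2 fold change was −0.34. Over all genes 10.3% fell and 6.64% rose. The excitatory neuron list (2 of 6 lower, median −0.02), the oligodendrocyte list (1 of 6 lower, −0.01), the astrocyte list (2 of 6 lower, −0.07), the microglia list (2 of 6 lower, −0.14) and the endothelial list (1 of 6 lower, −0.10) had medians closer to 0. Summed levels were nevertheless lower in every CBP-ifKO than in every control of the same housing for astrocyte markers (1453 to 1476 against 1511 to 1694 CPM in SC, 1314 to 1388 against 1474 to 1523 in EE), microglia markers (234.2 to 256.5 against 262.6 to 266.7 in SC, 227.5 to 234.3 against 242.9 to 271.6 in EE) and interneuron markers (796.0 to 832.7 against 851.2 to 917.5 in SC, 820.9 to 855.4 against 871.1 to 946.6 in EE). Endothelial markers were apart in SC (150.8 to 163.2 against 177.7 to 181.2 CPM) and overlapped in EE, as did choroid plexus markers (7.89 to 10.8 against 26.0 to 29.6 CPM in SC). Interneuron and proliferating cell markers had 1 of 6 higher and 1 of 6 lower each, with medians of −0.08 and −0.10, and of 5 choroid plexus markers tested 1 fell (median −1.55). Every marker was above the limit that a count of 0 allows in at least 1 library. The part of these markers in the genotype result was not tested.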

How the data were processed

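Gene counts of 12 mice were deposited as 1 table, with 1 column per mouse, while the labels list 2 sequencing runs of each. According to the labels and the methods of the study, the authors sequenced single-end reads of 50 bases, checked them with FastQC 0.11.8, trimmed them with Trim Galore 0.6.4 and aligned them to mm10 (GRCm38) with STAR 2.6.1, keeping reads with a mapping quality over 10 before counting. The table, as deposited, holds unnormalized read counts by gene, beside a gene length. Whether counting used strand is not given in the sources used here, nor is the reason why all CBP-ifKO counts are even.

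Gene IDs were matched to GENCODE M21 (55144 of 55471), whose build is the same. edgeR 4.0.16 was used in R 4.3.3: genes were filtered with filterByExpr, libraries scaled by TMM, and quasi-likelihood F tests adjusted by Benjamini-Hochberg over all genes tested (threshold 0.05). Genotype was tested in the 6 mice of each housing, and the averaged genotype effect, the housing effects and the interaction in a fit of all 12 mice. CPM values are TMM-scaled. Alternatives were DESeq2 1.42.0 (the study itself used DESeq2 1.30.1), its size factors in edgeR, no filter, a filter of 1 CPM in 3 mice, halved CBP-ifKO counts, a length trend (lowess) removed, a replicate block, all mice in the fit (or, for housing, the mice compared only) and leaving out each mouse. Removal of a GC trend and of both control mice numbered 2 were alternatives chosen once the data had been looked at. The 51 genes and the lists of partners and markers were chosen with earlier results of these data known. Values in every mouse are given for genes past the threshold in any comparison, filled to 8 by the smallest p of the averaged genotype test. Kmt2d, Dot1l, Kmt2e, Epop and Prmt8 were included after their values were seen. The labels give 3 replicates per group without saying how cages or litters were spread, so p-values measure the spread between these individual mice. Limits from a count of 0 use 3 counts per library and cover counting error only.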

Additional observations from a re-analysis of the deposited data

How the results depend on the processing

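The number of the 50 genes past the threshold was recomputed under each alternative. For genotype in SC, 1 gene passed, and 3 passed (Kdm4c, Setd6 and Suv39h1) with DESeq2, with a filter of 1 CPM in 3 mice, with the length trend removed and with all mice in the fit, 2 with a GC trend removed and 11 without both control mice numbered 2. Without a filter on low counts 1 passed, Suv39h1 in place of Kdm4c. Leaving out 1 mouse at a time gave 0 to 11, the latter without control SC mouse 2 and the single gene without control SC mouse 1 being Suv39h1. For genotype in EE, 1 gene passed, and 2 passed with the length trend removed, 3 with all mice in the fit (Ezh1, Kdm4c and Suv39h1) and 0 to 1 without 1 mouse. For genotype averaged over housings, 4 passed, and 7 passed with DESeq2, with its size factors, with 1 CPM in 3 mice and with a GC trend removed, 11 with the length trend removed, 17 without both control mice numbered 2 and 3 to 8 without 1 mouse. For EE averaged over genotypes, 1 gene (Kmt2d) passed against 0 when low counts were not filtered. The causes were not tested. For EE in control mice, EE in CBP-ifKOs and the interaction, all alternatives run left the number at 0. In the genotype comparisons Suv39h1, Suv39h2, Kdm4c, Setd6, Ezh1, Kmt2b, Suz12 and Kdm1b kept their sign in every alternative. Among the other genes, 5 fold changes averaged over housings turned sign without both control mice numbered 2: Kmt2a from −0.08 to 0.09, Ash1l from −0.04 to 0.08, Setd7 from −0.02 to 0.09, Kdm7a from −0.05 to 0.04 and Setmar from 0.05 to −0.01, none of them past the threshold. Signs near 0 also turned when 1 mouse was left out. Examples are Ehmt1 (0.01 to −0.01) and Setd1a (0.04 to −0.02) without CBP-ifKO EE mouse 2, and Kmt2d (0.03 to −0.01) without control EE mouse 1. The counts of positive and negative fold changes rest in part on such signs. Same-numbered mice were compared for shared deviations: control SC and control EE mice had correlations of 0.034 to 0.305, CBP-ifKO SC and CBP-ifKO EE mice of −0.046 to 0.086, control SC and CBP-ifKO SC mice of −0.047 to 0.102, and control EE and CBP-ifKO EE mice of 0.034 to 0.124. Differently numbered mice of these pairs of groups had −0.251 to 0.072, −0.105 to 0.144, −0.145 to 0.076 and −0.125 to 0.006. Between the genotypes in EE, every same-numbered pair was thus above every other pair. The fits used throughout treated the mice as sharing only a number, since some same-numbered pairs were below 0.1. Whether same-numbered mice shared a batch was not tested. With the replicate block 7 genes passed averaged over housings (Kmt2b, Suv39h2 and Suz12 in addition), 1 in SC (Setd6, in place of Kdm4c) and 1 in EE (Suv39h1). Counts over all genes moved by more than 1.5 times in some fits: genotype in SC from 968 to 1512 and genotype in EE from 805 to 1677 without a filter, genotype in EE to 1296 with DESeq2 and to 1293 with all mice in the fit, genotype in SC to 1908 without control SC mouse 2, EE averaged over genotypes from 30 to 158 with DESeq2, 334 without a filter and 48 with the block, EE in CBP-ifKOs from 2 to 54 with DESeq2, 247 without a filter, 17 with the block, 21 with only the mice compared, 18 without both control mice numbered 2, 6 with the length trend removed and 0 with halved counts, EE in control mice from 0 to 15 with DESeq2 and 145 without a filter, and the interaction from 0 to 110 without a filter. Leaving out 1 mouse gave 399 to 1908 genes for genotype in SC, 285 to 1016 for genotype in EE, 7 to 42 for EE averaged over genotypes, 0 to 10 for EE in CBP-ifKOs and 0 to 5 for EE in control mice. Depth limits Kdm4d and Kdm6bos, whose 95% intervals reach 0.48 and 0.59.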
